A study of Mus musculus with 6 samples.

Results

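The 40 genes described here encode RNA polymerase I subunits and factors, small nucleolar ribonucleoprotein (snoRNP) proteins and ribosome assembly factors. They were chosen by gene name, and all 40 names matched 1 row each among the 55471 gene IDs of the deposited table. The libraries were total RNA from haematopoietic stem cells of mice with the genotype ETV6-RUNX1, the fusion formed by a translocation of childhood B-cell precursor leukaemia. Both groups carried this genotype. The uninduced group (NoDox, 3 libraries) had no doxycycline listed, and the induced group (Dox, 3 libraries) came from mice fed doxycycline for 2 weeks. Cells of both groups were sorted as Lin-, Kit+, Sca1+, CD48- and CD150+. The promoter that drives the fusion, the age and strain of the mice, and whether a library came from 1 mouse are not given in the sources used here. Doxycycline-fed mice lacking the fusion were not analysed here, and so induction of the fusion and doxycycline itself cannot be told apart. The p-values measure only the spread between these libraries, which may be technical.

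Ribosome production starts in the nucleolus, where RNA polymerase I transcribes the precursor of the large ribosomal RNAs. Box C/D snoRNPs guide methylation of that precursor and box H/ACA snoRNPs guide its pseudouridylation, while large assemblies of helicases, GTPases and scaffold proteins fold and cut it into the small (40S) and large (60S) subunits. Adult haematopoietic stem cells are known for a low rate of protein synthesis, and many genes of ribosome production are known targets of Myc transcription factors.

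Values were TPM (length-corrected transcript abundance scaled to a fixed total), which make genes comparable in level and are a share of each library, so sequencing depth is unknown. Nuclear protein-coding genes together took 26.6% to 32.9% of the TPM in uninduced libraries and 20.5% to 23.2% in induced libraries. Rows typed as miRNA took 18.6% to 30.1% and 33.9% to 41.2% in the same order, and their part in the results was not tested. Over the 13470 genes tested, the log2 change had a median of -0.35, and of -0.003 after median-of-ratios scaling, which sets the typical gene near no change. Both scales are therefore given. The 9 stem cell markers reported here were detected, with summed levels of 471 to 610.1 TPM in uninduced and 624 to 696 TPM in induced libraries. On the deposited scale 4 of these were called higher (Hlf, Ly6a, Mllt3 and Procr) and 1 lower (Kit). After median-of-ratios scaling the 4 were again called higher, Mecom was too (limma adjusted p 0.0142), and Kit was not called (adjusted p 0.220). Hlf lost its call on the deposited scale without induced replicate 1 or 2 or uninduced replicate 1 or 3 (limma adjusted p up to 0.107), and Kit without any induced library or uninduced replicate 2 (up to 0.115). Of the 8 lymphoid markers reported here, Cd3e, Cd79a, Cd8a, Dntt and Il7r were listed at 0 in all 6 libraries, and Cd4 and Rag1 were under 1 TPM. The remaining marker, Nkg7, a gene of cytotoxic lymphocytes, was at 6.21, 15.8 and 5.84 TPM in uninduced libraries and listed at 0 in the induced ones. It made up nearly all of the list's sum in uninduced libraries, 6.21 to 16.7 TPM. In induced libraries the list's sum was 0 to 0.738 TPM, all of it from Cd4.

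All 40 genes had a lower mean in induced cells, and 23 of them were called lower by limma at an adjusted p under 0.05, while 0 were called higher (0 higher at an unadjusted p under 0.05 also). The background is that 10.2% of all tested genes were called lower and 1.29% higher on this scale, and that 72.5% had a change below 0. Among the 8996 genes that averaged 5 TPM or more, the range in which all 40 lay, 13.7% were called lower. The median log2 change of the 40 genes was -1.09, with single genes between -1.75 (Nolc1) and -0.49 (Bop1). After median-of-ratios scaling 11 of the 40 were called lower, where the background is 3.21% lower (4.28% of the genes that averaged 5 TPM or more) and 2.84% higher, and these 11 were all among the 23. Rescaling to nuclear protein-coding genes called 12 of the 40, with a background of 4.27% lower and 4.12% higher. The median of the 40 was -0.72 after median-of-ratios scaling, with all 40 changes below 0, as were 50.2% of all tested genes, and it was -0.73 after the nuclear protein-coding rescaling. On the deposited scale an unadjusted p under 0.05 was reached by 37 of the 40, against 24.2% of all tested genes that reached it in the lower direction, and on each of the other scales by 25 of the 40, against 11.3% of all tested genes after median-of-ratios scaling and 11.9% after the nuclear protein-coding rescaling. A further 5 genes just missed the adjusted threshold on the deposited scale, namely Polr1b, Ubtf, Taf1d, Nat10 and Ebna1bp2, with limma adjusted p from 0.0505 to 0.0554. In bulk samples, fewer cells of a type and less RNA per cell cannot be told apart.

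**Figure D1:**
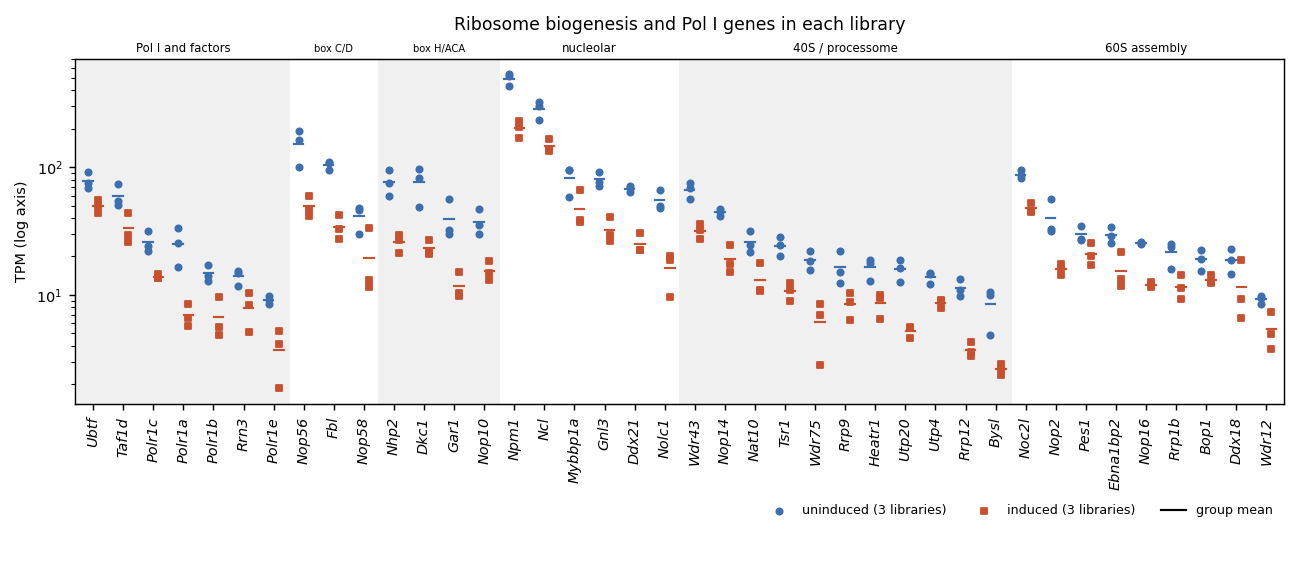
TPM on a log axis of each of the 40 genes in the 3 uninduced (circles) and 3 induced (squares) libraries, with short lines at the group means, ordered by role and then by uninduced level. The groups overlap only for Nop58, Mybbp1a and Ddx18.

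The groups did not overlap for 37 of the 40 genes, every induced library being below every uninduced one, where 28.2% of all tested genes showed this order. The exceptions were Nop58, Mybbp1a and Ddx18. The summed level of the 40 genes was 2452, 2604 and 2046 TPM in the uninduced libraries and 1031, 952 and 1142 TPM in the induced ones. The lowest uninduced total was above the highest induced one. As a share of nuclear protein-coding TPM the sum was 0.794% ± 0.0267 (SD, n = 3) in uninduced and 0.475% ± 0.0149 (SD, n = 3) in induced libraries, and these groups did not overlap either. Relative to its own uninduced mean, the median gene stood at 41.4%, 42.6% and 44.1% in induced replicates 1, 2 and 3. Induced replicate 3 held the highest of the 3 induced values for 22 of the 40 genes. In that library Ddx18 was at 99.9% and Wdr75 at 15.1% of the uninduced mean. The median coefficient of variation over replicates was 17.8% in uninduced and 20.7% in induced cells, and the widest induced spread was that of Nop58 (63.9%).

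**Figure D2:**
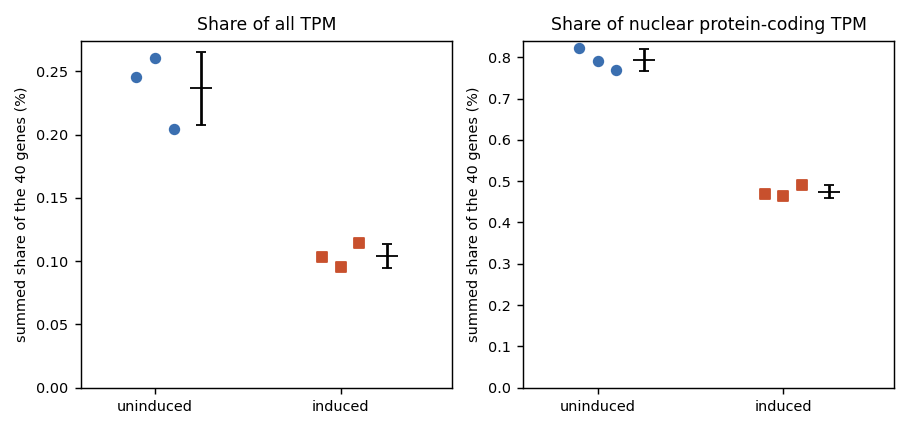
Summed share of the 40 genes in each library, as a percentage of all TPM (left) and of nuclear protein-coding TPM (right). Points are libraries, and bars beside them are means with SD (n = 3). Induced libraries are lower on both denominators, at 0.475% against 0.794% on the right.

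The RNA polymerase I group held 7 genes, of which 2 were called lower, Polr1a and Polr1c, and 1 (Polr1a) after median-of-ratios scaling. Polr1a (ENSMUSG00000049553, GRCm38 chr6:71909053-71984935, plus strand) encodes the largest subunit of the enzyme. It was at 25.7, 33.6 and 16.5 TPM in uninduced and at 5.74, 6.53 and 8.55 TPM in induced libraries. All induced values lay below the uninduced ones, and the log2 change was -1.69 (SE 0.31, limma adjusted p 0.00897). Its ratio of means, 3.64, was the highest among the 40 genes. After median-of-ratios scaling the Polr1a change was -1.32 (limma adjusted p 0.0234). Ubtf (ENSMUSG00000020923, chr11:102304560-102319742, minus strand) encodes UBF, the architectural factor that keeps ribosomal DNA open for polymerase I, and had the highest level of this group. It was at 75.5, 91.7 and 68.5 TPM in uninduced and 43.6, 49.6 and 55.3 TPM in induced libraries. The groups did not overlap, but the log2 change of -0.65 (SE 0.19) had a limma adjusted p of 0.0514 and was -0.26 (adjusted p 0.372) after median-of-ratios scaling.

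Among the other polymerase I genes, Polr1c, a subunit shared with RNA polymerase III, fell by 0.84 on the log2 scale (limma adjusted p 0.0431), a call that was lost when any of the 6 libraries was left out (limma adjusted p 0.0614 to 0.133) and after median-of-ratios scaling (adjusted p 0.253). Polr1b, the second-largest subunit, had a log2 change of -1.07 and Polr1e, which encodes the PAF53 subunit, one of -1.17, neither past the threshold. Rrn3, the initiation factor TIF-IA that recruits the enzyme, was at 14.01 ± 2.04 TPM in uninduced and 7.94 ± 2.68 TPM in induced cells (SD, n = 3 each, limma adjusted p 0.129). Taf1d, a subunit of the promoter selectivity factor SL1, had a log2 change of -0.84 (limma adjusted p 0.0554). The groups were thus separated for each of the 7 genes, with Polr1a the sole one past the threshold on both scales.

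The 7 snoRNP proteins, 3 of box C/D and 4 of box H/ACA, had the lowest medians of the 6 role groups, at -1.57 and -1.58 on the log2 scale. Of the 7 genes 6 were called lower on the deposited scale and 5 after median-of-ratios scaling. Whether this group differs from the other roles was not tested. Fbl (ENSMUSG00000046865, chr7:28169710-28179269, plus strand) encodes fibrillarin, the methyltransferase of box C/D particles. It was at 109, 110 (109.8) and 95.6 TPM in uninduced and at 27.2, 32.8 and 42.5 TPM in induced libraries. The log2 change was -1.61 (SE 0.20, limma adjusted p 0.00221), and -1.21 (adjusted p 0.00588) after median-of-ratios scaling. Nop56 (ENSMUSG00000027405, chr2:130274430-130279313, plus strand), a core scaffold of the same particles, was at 193, 165 and 99.8 TPM in uninduced and at 46.6, 41.4 and 59.9 TPM in induced libraries. Its log2 change was -1.57 (SE 0.25, limma adjusted p 0.00551). Nop58, the other core scaffold, was at 47.5, 46.2 and 30.2 TPM in uninduced and at 11.4, 13.1 and 33.7 TPM in induced libraries. Induced replicate 3 alone overlapped the uninduced values there, and Nop58 did not pass (log2 change -1.18, limma adjusted p 0.0698). Without that library Nop58 passed, with a limma adjusted p of 0.0148.

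In the box H/ACA particles all 4 core proteins were called lower. Dkc1 (ENSMUSG00000031403, chrX:75095854-75109777, plus strand) encodes dyskerin, the pseudouridine synthase that is also part of telomerase. It was at 82.7, 96.98 and 48.8 TPM in uninduced and 20.94, 21.55 and 26.98 TPM in induced libraries (log2 change -1.63, SE 0.26, limma adjusted p 0.00562). Gar1 (ENSMUSG00000028010, chr3:129824912-129831396, minus strand) was at 32.2, 56.5 and 29.8 TPM in uninduced and 10.3, 9.72 and 15.2 TPM in induced libraries. The change was -1.63 in log2 units (SE 0.30, limma adjusted p 0.00874). Nhp2 (ENSMUSG00000001056, chr11:51619735-51623714, plus strand) was the most abundant of the 4 by a small margin. It was at 95.3, 75.6 and 59.99 TPM in uninduced and 21.2, 26.98 and 29.6 TPM in induced libraries (log2 change -1.52, SE 0.23, limma adjusted p 0.00432). Nop10, the smallest core protein, had a log2 change of -1.21 (limma adjusted p 0.0139). Dkc1, Gar1 and Nhp2 also passed after median-of-ratios scaling (limma adjusted p 0.0140, 0.0238 and 0.0142), and Nop10 did not (adjusted p 0.0535). The Nop10 call was also lost without induced replicate 2 or without uninduced replicate 1 (limma adjusted p up to 0.0610).

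Among the 6 abundant, multifunctional nucleolar proteins, 5 were called lower on both scales. Npm1 (ENSMUSG00000057113, chr11:33152287-33163206, minus strand) encodes nucleophosmin, a nucleolar chaperone mutated in acute myeloid leukaemia, and had the highest level of the 40 genes. It was at 514, 533 and 433 TPM in uninduced and 207, 169 and 230.2 TPM in induced libraries. The log2 change was -1.29 (SE 0.16, limma adjusted p 0.00212), and -0.89 (adjusted p 0.00305) after median-of-ratios scaling. Ncl (ENSMUSG00000026234, chr1:86344719-86359400, minus strand) encodes nucleolin, which binds nascent ribosomal RNA. It was at 303, 327 and 235 TPM in uninduced and 133, 139 and 166 TPM in induced libraries (log2 change -0.97, SE 0.17, limma adjusted p 0.00786). Without the variance trend in limma the Ncl call was lost (adjusted p 0.0627). The ratio of means was 1.97 for Ncl and 2.44 for Npm1.

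Nolc1 (ENSMUSG00000015176, chr19:46075863-46085530, plus strand) encodes Nopp140, a chaperone of snoRNPs. It was at 48.3, 50.1 and 66.9 TPM in uninduced and 20.2, 9.69 and 18.8 TPM in induced libraries, and its log2 change of -1.75 (SE 0.29, limma adjusted p 0.00599) was the lowest of the 40. Gnl3 (ENSMUSG00000042354, chr14:31012433-31019152, minus strand) encodes nucleostemin, a nucleolar GTPase abundant in stem and proliferating cells. Its values were 77.3, 91.5 and 71.8 TPM in uninduced and 29.7, 40.9 and 26.4 TPM in induced libraries (log2 change -1.30, SE 0.21, limma adjusted p 0.00576). Ddx21 (ENSMUSG00000020075, chr10:62580251-62602281, minus strand) encodes an RNA helicase that acts in both transcription and processing of ribosomal RNA. It was at 71.5, 68.6 and 63.7 TPM in uninduced and 22.5, 22.6 and 30.4 TPM in induced libraries (log2 change -1.41, SE 0.20, limma adjusted p 0.00366). Mybbp1a, a nucleolar Myb-binding protein, was at 65.9 TPM in induced replicate 1, above uninduced replicate 3 at 58.3 TPM. It did not pass (log2 change -0.81, limma adjusted p 0.0856), and it passed without induced replicate 1 (limma adjusted p 0.0485) or without uninduced replicate 3 (limma adjusted p 0.0464).

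**Figure D3:**
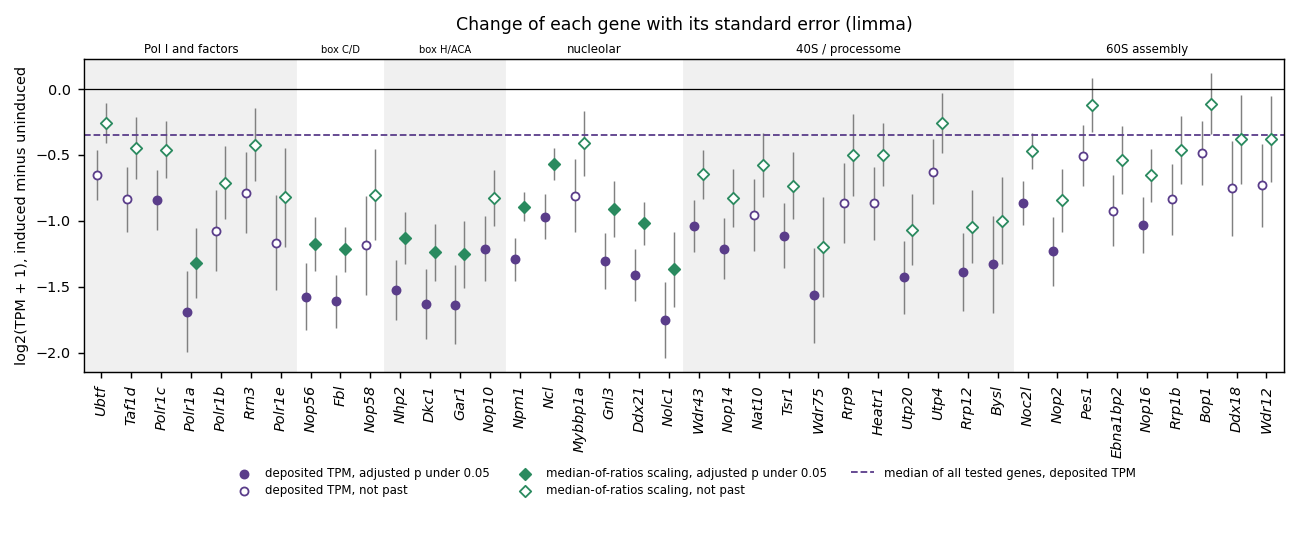
Difference in log2(TPM + 1), induced minus uninduced, of each gene with its standard error from limma, on the deposited scale (circles) and after median-of-ratios scaling (diamonds). Filled symbols passed an adjusted p of 0.05, and the dashed line is the median of all tested genes on the deposited scale, -0.35. The 11 filled diamonds are Polr1a, Nop56, Fbl, Nhp2, Dkc1, Gar1, Npm1, Ncl, Gnl3, Ddx21 and Nolc1.

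Of the 11 genes of the small-subunit processome and 40S assembly, 7 were called lower on the deposited scale. After median-of-ratios scaling limma called 0 of the 11, with 8 at an unadjusted p under 0.05. Wdr43 (ENSMUSG00000041057, chr17:71615895-71659031, plus strand), a UTP-A component that links polymerase I transcription to processing, had the highest level of the group. It was at 56.3, 68.8 and 75.2 TPM in uninduced and 32.5, 27.5 and 35.8 TPM in induced libraries (log2 change -1.04, SE 0.20, limma adjusted p 0.0110). Without induced replicate 2 its adjusted p was 0.0515, and after median-of-ratios scaling it was 0.0810. Nop14 (ENSMUSG00000036693, chr5:34638536-34660148, minus strand), required for maturation of 18S ribosomal RNA, was at 41.3, 44.96 and 47.3 TPM in uninduced and 24.7, 15.01 and 17.45 TPM in induced libraries. Its log2 change was -1.21 (SE 0.23, limma adjusted p 0.0109), and it passed whichever library was left out. The other genes called lower were Wdr75 (-1.56), Utp20 (-1.42), Rrp12 (-1.39), Bysl (-1.33) and Tsr1 (-1.11), in log2 units. Bysl, the 40S factor bystin, had the lowest mean over the 6 libraries of the 40 genes, at 10.02, 10.5 and 4.85 TPM in uninduced and 2.36, 2.58 and 2.88 TPM in induced libraries. Leaving out 1 library lost each of these 5 calls: Utp20 without induced replicate 2 (limma adjusted p 0.0507), and Rrp12 without induced replicate 2 or 3 or uninduced replicate 2 (up to 0.0609). Wdr75 was lost without induced replicate 3 or uninduced replicate 1 or 2 (limma adjusted p up to 0.0804), and Tsr1 without induced replicate 2 or 3 or uninduced replicate 2 or 3 (up to 0.0665). Bysl was lost without any of the libraries except uninduced replicate 3 (limma adjusted p up to 0.133). Heatr1, Nat10, Rrp9 and Utp4 did not pass, with log2 changes from -0.95 to -0.63.

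In the large-subunit group 3 of 9 genes were called lower, Noc2l, Nop2 and Nop16, and after median-of-ratios scaling limma called 0 of 9, with 3 at an unadjusted p under 0.05. Noc2l (ENSMUSG00000095567, chr4:156236010-156247616, plus strand), a partner in early 60S particles, was at 86.6, 94.4 and 82.0 TPM in uninduced and 45.7, 44.8 and 52.8 TPM in induced libraries. Its log2 change was -0.86 (SE 0.17, limma adjusted p 0.0121), with an adjusted p of 0.0550 without induced replicate 2. Nop2, a 28S ribosomal RNA methyltransferase, fell by 1.23 and Nop16 by 1.03 on the log2 scale (limma adjusted p 0.0172 and 0.0154). Both were lost without induced replicate 1 or 2, and Nop2 also without induced replicate 3 (limma adjusted p up to 0.0550). Bop1, Pes1 and Wdr12 form the PeBoW complex, which is needed for 28S and 5.8S ribosomal RNA maturation. Its 3 genes had log2 changes of -0.49, -0.51 and -0.73, and limma called 0 of them, with 1 at an unadjusted p under 0.05. Bop1 and Pes1 had the smallest ratios of means of all 40 genes, 1.45 and 1.43. Ddx18, a 60S helicase, was at 6.58, 9.30 and 18.7 TPM in induced libraries, against 22.9, 18.7 and 14.7 TPM in uninduced ones.

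The rest of the pathway was read from a list of 132 further genes with a row in the table, all of which could be tested. Of these limma called 25 lower (18.9%, against 10.2% of all tested genes) and 0 higher. At an unadjusted p under 0.05 there were also 0 higher (limma), and the median log2 change was -0.64. After median-of-ratios scaling 4 were called lower (3.03%, against 3.21% of all tested genes), and the median was -0.27. By role, 3 of 14 other polymerase I subunits and factors, 3 of 9 snoRNP assembly factors, 11 of 45 small-subunit factors and 8 of 52 large-subunit factors were called lower. Of 12 exosome and exonuclease genes limma called 0 on either scale. At an unadjusted p under 0.05 (limma) 8 of these were lower, against 24.2% of all tested genes. After median-of-ratios scaling 1 was, against 11.3%. Cd3eap, another polymerase I subunit, went from 20.4 ± 1.67 to 8.22 ± 1.72 TPM (SD, n = 3 each), and Polr2e, a subunit shared by the 3 RNA polymerases, from 52.8 ± 3.66 to 30.3 ± 6.18 TPM. Ruvbl2 and Ruvbl1, the ATPases that assemble box C/D particles, had log2 changes of -1.09 and -1.04 (limma adjusted p 0.00922 and 0.0155). The lowest p among the small-subunit factors were those of Nol6 and Aatf, with log2 changes of -1.17 and -1.07, and among the large-subunit factors those of Ppan and Rsl1d1, with -1.43 and -1.03. Ruvbl2, Ppan and Rsl1d1 passed whichever library was left out. Each of the other 5 genes named here was lost without induced replicate 2 and without at least 1 further library (limma adjusted p up to 0.129). Without the expression filter 10 of the 132 were called. Without induced replicate 1, 2 or 3 the count was 14, 6 and 13, and without uninduced replicate 1 or 2 it was 9 and 8. For the 40 genes it was 13 without induced replicate 2.

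**Figure D4:**
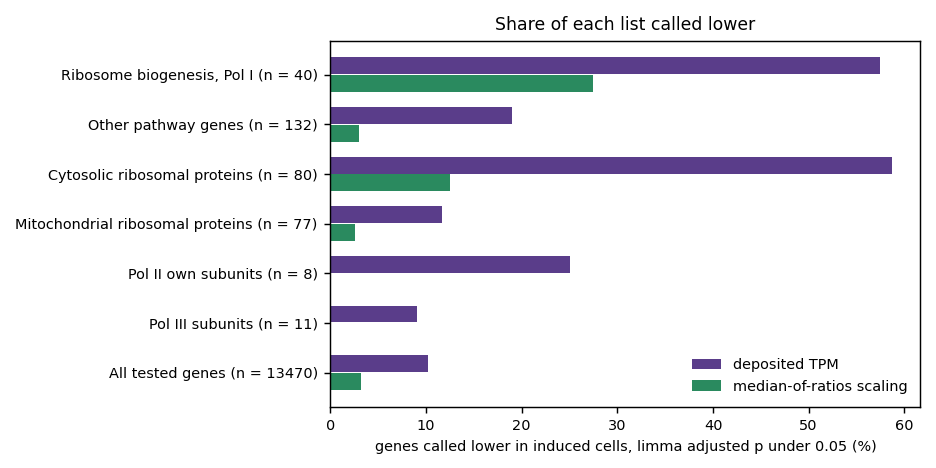
Percentage of the tested genes of each list called lower in induced cells (limma, adjusted p under 0.05), on the deposited scale and after median-of-ratios scaling, with all tested genes at the bottom. The 40 genes described here stand at 57.5% and 27.5%, and all tested genes at 10.2% and 3.21%.

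Neighbouring parts of the translation machinery are given side by side, with no test between lists. Of 80 tested cytosolic ribosomal protein genes 47 (58.8%) were called lower on the deposited scale, with a median log2 change of -0.62, and 10 (12.5%) lower and 1 higher after median-of-ratios scaling. Of 77 mitochondrial ribosomal protein genes 9 (11.7%) were called lower, with a median of -0.63, and 2 (2.60%) after median-of-ratios scaling. Of 11 RNA polymerase III subunits 1 was called lower (median -0.38) and of 8 subunits particular to RNA polymerase II 2 were (median -0.60). After median-of-ratios scaling limma called 0 of both, with 2 of each lower at an unadjusted p under 0.05 and medians of -0.015 and -0.205. The median of the 40 genes, -1.09, was below each of these. The share of TPM in rows typed as ribosomal RNA was 4.27% to 6.54% in uninduced and 4.75% to 5.93% in induced libraries, so the groups overlapped. The 3 rows listed as overlapping ribosomal RNA repeats (AY036118, Gm26917 and Gm42418) instead summed to 23740 to 27650 TPM in uninduced and 14770 to 16350 TPM in induced libraries, without overlap. Of these Gm26917 was called lower on both scales (log2 change -1.14, limma adjusted p 0.00236), and the others were not called. After median-of-ratios scaling only 1 of the 3 changes was below 0, and the others were 0.005 and 0.176. Since these are libraries and not absolute amounts, this share is not a level of ribosomal RNA per cell.

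Genes of proliferation moved in the same libraries. Of 16 proliferation markers, 14 were called lower on the deposited scale and 13 after median-of-ratios scaling, and their summed level was 701 to 852 TPM in uninduced and 165 to 219 TPM in induced libraries. Mycn fell from a mean of 139.5 to 12.2 TPM (log2 change -3.44, limma adjusted p 0.000123) and Myc from 59.8 to 21.7 TPM (log2 change -1.46, limma adjusted p 0.0120), the Myc call being lost without induced replicate 2 (limma adjusted p 0.0558). The 9 erythroid markers reported here summed to 59.3 to 75.3 TPM in uninduced and 403 to 465 TPM in induced libraries, with 5 of 8 tested called higher. Most of that sum was in the globin rows Hba-a1, Hba-a2, Hbb-bs and Hbb-bt, and the other called marker was Alas2. Epor (3.37 to 0.485 TPM) and Tfrc (9.39 to 4.26 TPM) had lower means in induced cells and were not called (limma adjusted p 0.0638 and 0.174). Megakaryocyte and platelet markers summed to 81.7 to 114 TPM and 105 to 114 TPM in the same order, and single markers went in both directions. Ppbp (0.292 to 11.03 TPM) and Pf4 (28.4 to 60.7 TPM) were called higher on both scales, Pf4 with the call lost without any of the libraries except uninduced replicate 2. Gp9 (16.7 to 2.96 TPM) was called lower on the deposited scale, which was lost without uninduced replicate 2 and after median-of-ratios scaling. Myeloid markers summed to 137 to 142 TPM and 67.2 to 101 TPM, in the same order. Of these 8 markers 4 could be tested, and limma called 0 on either scale. At an unadjusted p under 0.05 (limma) 3 were lower on the deposited scale and 0 after median-of-ratios scaling. The part that these cell states or cell types have in the lower ribosome biogenesis transcripts was not tested.

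Among the 40 genes, 8 carry snoRNA genes inside their introns or span on the same strand, 29 snoRNA genes in all by the GENCODE M21 annotation. This allowed another readout of the same transcription units. The 8 host rows summed to 830 (829.9), 894 and 643 TPM in uninduced and 331, 324 and 384 TPM in induced libraries, without overlap. Their mean in induced cells was 43.9% of that in uninduced cells. The 29 snoRNA rows summed to 3573, 2226 and 2607 TPM in uninduced and 2889.6, 2082 and 2094 TPM in induced libraries, where the groups overlapped, and the induced mean was 84.0% of the uninduced one. The overlap rested on 1 row, Gm23650 inside Nop56, which was at 887 TPM in induced replicate 1 and at 191 and 171 TPM in the other induced libraries. Without it, an alternative chosen after its values were seen, the sums were 2067.1 to 3259.2 TPM in uninduced and 1890.2 to 2002.7 TPM in induced libraries, without overlap, and the induced mean was 75.4%. Nop56 was at 32.3% of its uninduced mean and the 5 snoRNA rows inside it at 88.8%, or 76.1% and without overlap when Gm23650 was left out. The corresponding values were 50.7% and 83.6% for Ncl, 47.0% and 63.2% for Nop58, 55.9% and 73.8% for Taf1d, and 47.8% and 72.8% for Wdr43. Hosts with snoRNA rows at low levels differed from these: Tsr1 was at 44.0% and its 2 rows at 21.6%, and Gnl3 at 40.3% and its 3 rows at 152.7%, while the row inside Dkc1 was listed at 0. The summed snoRNA rows were lower in all induced libraries for Taf1d and Wdr43 and, with all rows included, overlapped for Ncl, Nop56 and Nop58. For the 23 snoRNA genes that could be tested, the median log2 change was -0.35, and 0.048 after median-of-ratios scaling. All tested genes had medians of -0.35 and -0.003. An unadjusted p under 0.05 (limma, either direction) was reached by 7 of the 23. Among the 13470 tested genes 3260 reached it lower and 502 higher. Limma called 0 of the 23 lower and 1 higher, and the counts were also 0 and 1 after median-of-ratios scaling. The gene called higher on the deposited scale, Snora75 inside Ncl, was at 6.18, 0.031 and 0.110 TPM in uninduced and 8.49, 13.9 and 41.7 TPM in induced libraries. TPM of rows this short rest on few positions, and reads from an intron of the host cannot be told from mature snoRNA in these values.

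**Figure D5:**
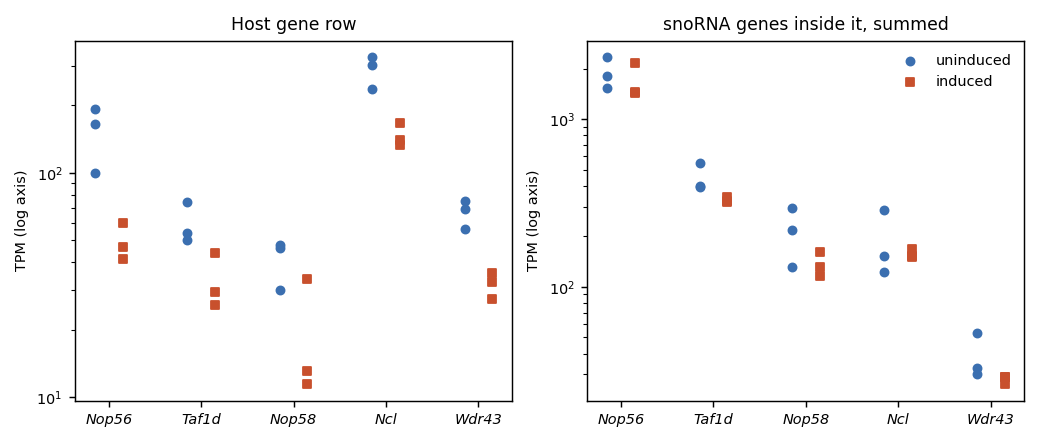
TPM on log axes of 5 host genes (left) and of the snoRNA genes inside each, summed (right), in the 3 uninduced (circles) and 3 induced (squares) libraries. The host rows are separated for all but Nop58, and the snoRNA sums overlap for Nop56, Nop58 and Ncl.

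Promoter windows of 300 bases, 250 before to 50 after the start site (RefSeq, GRCm38.p6), matched 36 of the 40 genes by symbol. The windows were searched for CACGTG, the E-box bound by Myc and related factors, which reads the same on both strands. It was present in 8 of the 36 genes, or 22.2%, against 8.09% of the 27025 genes with a window. The share was 19.3% for 109 other pathway genes and 9.52% for 63 cytosolic ribosomal protein genes. The 8 genes were Mybbp1a, Nop2, Pes1, Rrn3, Tsr1, Utp20, Utp4 and Wdr43, and Rrn3 held 2 matches. Stretches of 30 bases around each match are printed to show how much of the sequence beyond the motif differs. They run 5′ to 3′ on the gene's strand, with the motif in capitals:

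Mybbp1a, chr11:72441347-72441376: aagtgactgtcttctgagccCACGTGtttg

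Nop2, chr6:125131811-125131840: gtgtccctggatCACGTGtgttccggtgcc

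Pes1, chr11:3963965-3963994: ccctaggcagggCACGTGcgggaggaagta

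Rrn3, chr16:13780472-13780501: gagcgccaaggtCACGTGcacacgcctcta

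Rrn3, chr16:13780639-13780668: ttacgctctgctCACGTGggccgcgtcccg

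Tsr1, chr11:74898092-74898121: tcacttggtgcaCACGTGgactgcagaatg

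Utp20, chr10:88826765-88826794 (minus strand): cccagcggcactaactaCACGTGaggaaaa

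Utp4, chr8:106893643-106893672: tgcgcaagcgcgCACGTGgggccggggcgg

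Wdr43, chr17:71616220-71616249: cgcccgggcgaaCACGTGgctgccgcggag

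The first base of the motif lay before the start site in Nop2 (at -60) and Rrn3 (at -215 and -48), and after it in the other 6 genes, between bases 3 and 41. The 250 bases before the start of Rrn3, chr16:13780449-13780698, show how far apart its 2 matches stand:

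Rrn3: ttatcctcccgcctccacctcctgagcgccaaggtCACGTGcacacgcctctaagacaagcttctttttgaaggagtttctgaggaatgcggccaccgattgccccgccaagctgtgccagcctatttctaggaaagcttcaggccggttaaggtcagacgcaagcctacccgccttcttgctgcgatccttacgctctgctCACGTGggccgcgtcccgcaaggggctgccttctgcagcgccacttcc

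The 8 genes with a match had a median log2 change of -0.92, and 4 of them were called lower. The 28 with a window and no match had a median of -1.12, with 16 called lower. The genes past the threshold on both scales that had a window, such as Polr1a, Dkc1 and Nolc1, held no CACGTG there. The last 30 bases of the window lay in a GENCODE transcript for 33 of the 36 genes, and the window of Ncl lies wholly outside the gene span given above. A match is a description of the letters, and no match says only that these letters are not in this window.

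Rows of pseudogenes similar in sequence bear on some of the values above. At 90% identity over at least 200 bases, 14 of the 40 genes had a GENCODE pseudogene transcript that resembles their own. For Npm1 there were 10 such pseudogenes, which together held 301, 294 and 238 TPM in uninduced and 113, 128 and 102 TPM in induced libraries. Adding them to the Npm1 row gave 771 ± 86.7 and 316.7 ± 17.96 TPM (SD, n = 3 each) and a log2 change of -1.28, against -1.29 for the row alone. Pseudogene rows made up 33.8% of the uninduced sum for Ddx18, 26.98% for Wdr12, 13.2% for Fbl and 11.1% for Nop56. With them added the log2 change was -0.75 for Ddx18, -0.79 for Wdr12, -1.57 for Fbl and -1.51 for Nop56. How reads were divided between these copies is not given in the sources used here, so the absolute levels of these genes are uncertain. For 19 of the 40 genes a gene on the opposite strand spans part of an exon, and in 15 of these it was above 0 in some library, for example Ccnd3 at Bysl, Idh3b at Nop56, Mpp1 at Dkc1, Rmnd5b at Nhp2 and Pbrm1 at Gnl3. The library kit keeps strand, but whether the authors' quantification used it is not given in the sources used here.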

How the data were processed

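The extraction and library kits, per the labels' protocols, were made for very low input, kept strand and took total RNA, and both ends of each fragment were read. The submitters' processing notes name HISAT2, StringTie, DESeq2 and the build GRCm38, with no versions, and no read filter is given in the sources used here. Values are TPM, deposited by the authors in 1 table with a column per library. A GC column in percent, per the file headers, was not used. Rows were summed per gene ID (60496 rows, 55471 IDs), and sequencing depth is unknown. Here log2(TPM + 1) was tested, for the 13470 genes averaging 1 TPM or more, with limma 3.58.1 in R 4.3.3 (variance trend, two-sided, Benjamini-Hochberg over all tested genes, threshold 0.05), after a check on simulated data. Log2 changes are on this scale, which understates low genes. Genes given in full were, per role, those with the highest level and the lowest p, plus any with an adjusted p under 0.01 or called against the common direction. From the further pathway lists, the 2 with the lowest p are named. Members and lists were chosen with earlier results of these data known. Alternatives were other pseudocounts, filters and scalings, no trend, array weights, the replicate number as a block, and each library left out. Positions are from GENCODE M21 (GRCm38). Some marker genes are not reported here.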

Additional observations from a re-analysis of the deposited data

How the results depend on the processing

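All 40 changes stayed negative in each of the 17 refits. The 23 members called became 11 after median-of-ratios scaling, 11 after quantile normalization and 12 after rescaling to nuclear protein-coding genes, all of them among the 23. Without the variance trend 16 were called, and Ncl, Wdr43 and Noc2l were lost (limma adjusted p 0.0627, 0.0526 and 0.0631). Leaving out a library gave 13 to 22, the lowest without induced replicate 2, and 12 of the 23 passed whichever library was left out. The median member change was -0.87 with a pseudocount of 5 TPM and -0.72, -0.73 (-0.725) and -0.73 under the 3 scalings in that order, and -1.15 to -1.03 with a library left out. The 25 other pathway genes became 10 without the filter, 4, 3 and 6 under the scalings, 8 without the variance trend, and 6 to 19 with a library left out. The 1549 genes called overall (1375 lower, 174 higher) became 752 (656 and 96) without the filter, 814 (432 and 382), 814 (440 and 374) and 886 (451 and 435) under the scalings, and 767 (659 and 108) without the trend. Leaving out a library gave 611 to 1276, with 527 to 1146 lower and 77 to 131 higher. The scalings centre the median gene, at -0.005 to 0.025, and the cause of the other differences was not tested. The log2 ratio of the members' summed TPM was -1.18, -0.74 as a share of nuclear protein-coding TPM, and -1.28 to -1.11 with a library left out.

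Same-numbered libraries did not deviate together (correlations of 0.0215, -0.0152 and 0.0172 across genes, which are not independent), and 2 of 3 correlated best with their own number. With the replicate block 902 genes passed (782 lower), 19 members and 11 other pathway genes. With the block and median-of-ratios scaling, chosen after seeing the data, 456 passed (237 lower), 7 members and 0 other pathway genes (limma, 23 of them lower and 1 higher at an unadjusted p under 0.05).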
